A study of Mus musculus with 12 samples.

Results

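The effect of a 6-hydroxydopamine (6-OHDA) lesion on gene expression in mouse striatum was read from 6 of the 12 libraries of the series, the 3 labelled ADHD and STR and the 3 labelled Control and STR. All of them came from C57BL/6J mice at postnatal day 24, and the labels give the genotype as ADHD for lesioned and CTL for control mice. The other 6 libraries hold prefrontal cortex of the same groups and serve here as a level for tissue that is not striatum. 6-OHDA is a toxin taken up by catecholamine neurons through their transporters, and its early postnatal use in rodents is a model of attention-deficit/hyperactivity disorder. The sources used here do not give its dose, route and day, the treatment of the controls, the sex of the mice or the number of animals in a library. The p-values therefore measure the spread between these libraries, which may be technical.

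The striatum is the main input nucleus of the basal ganglia. Most of its neurons are GABA-releasing projection neurons. One class carries the dopamine receptor Drd1 with the peptide precursors Tac1 and Pdyn, the other carries Drd2 with the adenosine receptor Adora2a and the enkephalin precursor Penk. Dopamine reaches them along axons of midbrain neurons, whose cell bodies are not in the dissected tissue, so that striatal messenger RNA holds little of the transcripts those cells make. The brain surface is wrapped in pia and arachnoid, whose fibroblasts make collagens, collagen-binding proteoglycans and transporters for organic anions and amino acids. Choroid plexus, cortex, septum and hypothalamus also border the striatum.

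The 3 lesioned libraries held 16770863, 17565771 and 16539805 counts and the 3 control libraries 15991108, 16269105 and 18460171, so that a count of 3 corresponds to between 0.163 and 0.188 CPM, that is, counts scaled by library size. In all, 14288 genes passed the filter on low counts and were tested with the quasi-likelihood test of edgeR. The biological coefficient of variation was 14.85%. Lesioned library 1 and control library 2 stood apart from the rest: the first principal component, with 51.2% of the variance, placed lesioned library 1 at -48.09 and the other lesioned libraries at -2.19 and -11.98, against 17.12, 29.99 and 15.15 for the controls. On the second component, with 24.3%, control library 2 lay at 32.21 and control libraries 1 and 3 at -16.13 and -8.41. The 15 projection neuron markers, which define striatal tissue, averaged 8.251 to 9.547 log2 CPM in lesioned and 7.284 to 7.931 in control striatum, against 5.820 to 6.699 in prefrontal cortex.

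Few genes passed the threshold of the edgeR test, and the number depended on the tool. Of 14288 genes, 4 passed an adjusted p of 0.05 (Benjamini-Hochberg over all genes), which is 0.028%, 1 of them higher and 3 lower in lesioned striatum. The organic anion transporter gene Slc22a6, the fibromodulin gene Fmod and the fatty acid binding protein gene Fabp7 fell in lesioned striatum. On the same libraries DESeq2 called 529 genes, 320 higher and 209 lower, and limma-voom called 0. A gene is named as called where its adjusted p in edgeR is under 0.05, unless another tool is given. At an unadjusted p under 0.05 there were 2475 genes, 1329 of them higher and 1146 lower in lesioned striatum. Counts of list members by DESeq2 or at an unadjusted p, given below, are to be read beside these totals over 14288 genes. The median log2 fold change over all genes was -0.0042.

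Slc22a6 encodes OAT1, which carries organic anions across the membranes of kidney tubules, choroid plexus and meninges. Its level was 0.581, 0.620 and 0.727 CPM in lesioned libraries 1, 2 and 3, against 4.07, 6.10 and 4.79 CPM in control libraries 1, 2 and 3. These are 9, 11 and 12 counts in lesioned and 67, 100 and 90 counts in control libraries, and the highest lesioned library lay far below the lowest control. The log2 fold change, lesioned over control, was -2.94 (SE 0.25, adjusted p = 0.0427).

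Fmod encodes a small leucine-rich proteoglycan that binds collagen fibrils. It measured 2.26, 2.59 and 3.76 CPM in lesioned striatum, against 13.1, 18.1 and 15.7 CPM in control striatum. Its log2 fold change was -2.44 (SE 0.22, adjusted p = 0.0427). The groups were again widely separated.

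Fabp7, the brain fatty acid binding protein of radial glia and astrocytes, measured 11.2, 14.8 and 12.2 CPM in lesioned striatum, against 31.1, 31.8 and 35.7 CPM in control striatum. The spread within each group was small beside the gap between them. Its log2 fold change was -1.37 (SE 0.12, adjusted p = 0.0427).

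The calls of Slc22a6, Fmod and Fabp7 are near the threshold, and leaving out any single library ended them (adjusted p between 0.0686 and 0.225). Their log2 fold changes without 1 library ranged between -3.066 and -2.775 for Slc22a6, -2.680 and -2.299 for Fmod, and -1.496 and -1.282 for Fabp7.

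The promoters of the 3 genes that fell are shown because these are the genes called lower in lesioned striatum. Each stretch runs from 250 bases before to 50 bases after the annotated start and comes from RefSeq with GRCm38.p6, the build that the submitters name mm10. All 3 lie on the plus strand, Slc22a6 at chr19:8617746-8618045, Fmod at chr1:134037004-134037303 and Fabp7 at chr10:57784673-57784972. Capitals mark matches on either strand to the CCAAT box (CCAAT) and to the core that the Notch pathway factor RBPJ binds (TGGGAA).
Slc22a6: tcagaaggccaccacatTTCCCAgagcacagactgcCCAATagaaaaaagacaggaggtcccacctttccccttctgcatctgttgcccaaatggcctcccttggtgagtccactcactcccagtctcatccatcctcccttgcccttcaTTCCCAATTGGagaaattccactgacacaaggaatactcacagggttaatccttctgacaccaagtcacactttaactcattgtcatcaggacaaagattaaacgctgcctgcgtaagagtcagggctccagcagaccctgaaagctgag
Fmod: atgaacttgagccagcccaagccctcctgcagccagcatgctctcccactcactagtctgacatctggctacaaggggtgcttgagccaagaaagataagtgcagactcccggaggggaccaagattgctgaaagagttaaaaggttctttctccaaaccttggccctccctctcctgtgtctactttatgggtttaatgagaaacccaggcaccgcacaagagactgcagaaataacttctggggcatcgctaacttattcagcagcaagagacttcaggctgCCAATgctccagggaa
Fabp7: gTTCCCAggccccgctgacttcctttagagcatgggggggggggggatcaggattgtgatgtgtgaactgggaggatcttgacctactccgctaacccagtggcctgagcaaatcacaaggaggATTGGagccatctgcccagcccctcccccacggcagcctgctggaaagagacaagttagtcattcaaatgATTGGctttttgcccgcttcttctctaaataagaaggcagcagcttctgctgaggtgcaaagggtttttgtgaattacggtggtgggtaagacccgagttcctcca
The Slc22a6 promoter held 5 matches. A TGGGAA on the minus strand and a CCAAT on each strand overlapped in a single run of capitals about 100 bases before the start, with first bases at -100, -97 and -94, and the other pair began at -233 and -214. The Fmod promoter held a single CCAAT, at 35, and Fabp7 held CCAAT on the minus strand at -126 and -56 and TGGGAA on the minus strand at -249. These words are common: of 32851 promoters in the RefSeq table, 37.4% hold CCAAT and 25.6% hold TGGGAA. The TATA box TATAAA, the GC box GGGCGG, the forkhead word TGTTTAC and the AP-1 word TGANTCA were searched on both strands too and had no match in these 3 windows; they occur in 13.6%, 35.7%, 3.65% and 7.81% of promoters. A match describes the sequence and does not show that a factor binds there.

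Genes of meningeal fibroblasts lay lower in all 3 lesioned libraries than in all 3 controls, with a single exception. All 14 listed markers were tested, and all 14 had a log2 fold change below 0, with a median of -1.808 against -0.0042 over all genes. In 13 of the 14 the 3 lesioned libraries lay below the 3 controls, against 13.2% of all genes tested, and 2 of them, Slc22a6 and Fmod, were called. At an unadjusted p under 0.05 there were 13 markers, all lower, against 1146 lower of all 14288 genes. DESeq2 called 12 of the 14 lower, against 209 lower of all 14288 genes. The tool limma-voom, which called 0 genes in all, called 0. In bulk tissue, fewer cells of a type and less RNA per cell cannot be told apart.

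The collagen genes of the list, which encode the fibrils of loose connective tissue, moved alike. Col3a1 measured 2.71, 3.10 and 4.06 CPM in lesioned striatum, against 9.54, 10.8 and 10.2 CPM in control striatum (log2 fold change -1.62, SE 0.18, adjusted p = 0.0606). Col1a1 measured 2.78, 5.18 and 4.605 CPM in lesioned striatum, against 9.54, 15.7 and 10.6 CPM in control striatum. Col1a2 measured 8.07, 13.0 and 15.03 CPM in lesioned striatum, against 24.1, 32.6 and 27.0 CPM in control striatum. For each of these collagens the highest lesioned library stayed below the lowest control, and none was called.

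Among the other proteoglycans, Ogn, which encodes osteoglycin, measured 1.74, 2.09 and 1.76 CPM in lesioned striatum, against 5.71, 9.58 and 7.03 CPM in control striatum (log2 fold change -1.99, SE 0.24, adjusted p = 0.0678). Dcn, which encodes decorin, measured 3.74, 5.18 and 5.27 CPM in lesioned striatum, against 8.08, 10.9 and 7.93 CPM in control striatum. Lum, which encodes lumican, was the marker whose groups overlapped, with 0.323, 1.13 and 0.666 CPM in lesioned striatum, against 0.790, 2.81 and 0.745 CPM in control striatum.

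Transporters and enzymes of the meninges gave the same order of libraries. The GABA and taurine transporter gene Slc6a13 measured 2.39, 2.82 and 3.39 CPM in lesioned striatum, against 8.14, 9.09 and 7.08 CPM in control striatum (log2 fold change -1.49, SE 0.19, adjusted p = 0.0736). The sulfate transporter gene Slc13a4 measured 0.581, 1.92 and 2.12 CPM in lesioned striatum, against 8.75, 19.5 and 8.63 CPM in control striatum. Aldh1a2, which makes retinoic acid, measured 1.23, 1.07 and 1.94 CPM in lesioned striatum, against 4.92, 6.22 and 6.07 CPM in control striatum (log2 fold change -2.02, SE 0.26, adjusted p = 0.0736). Control library 2 was the highest of the 6 for each of these 3 genes, yet control libraries 1 and 3 also lay above every lesioned library.

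The growth factor gene Igf2 measured 0.387, 0.451 and 0.485 CPM in lesioned striatum, against 1.94, 2.99 and 2.61 CPM in control striatum (log2 fold change -2.49, SE 0.29, adjusted p = 0.0648). Igfbp2, whose protein binds insulin-like growth factors, measured 5.10, 6.93 and 5.51 CPM in lesioned striatum, against 16.7, 62.0 and 20.98 CPM in control striatum. The forkhead factor gene Foxd1 measured 0.387, 0.845 and 0.364 CPM in lesioned striatum, against 1.03, 1.95 and 1.44 CPM in control striatum. Igf2 rests on 6 to 8 counts in each lesioned library, so its fold is less precise than those of the collagens.

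**Figure D1:**
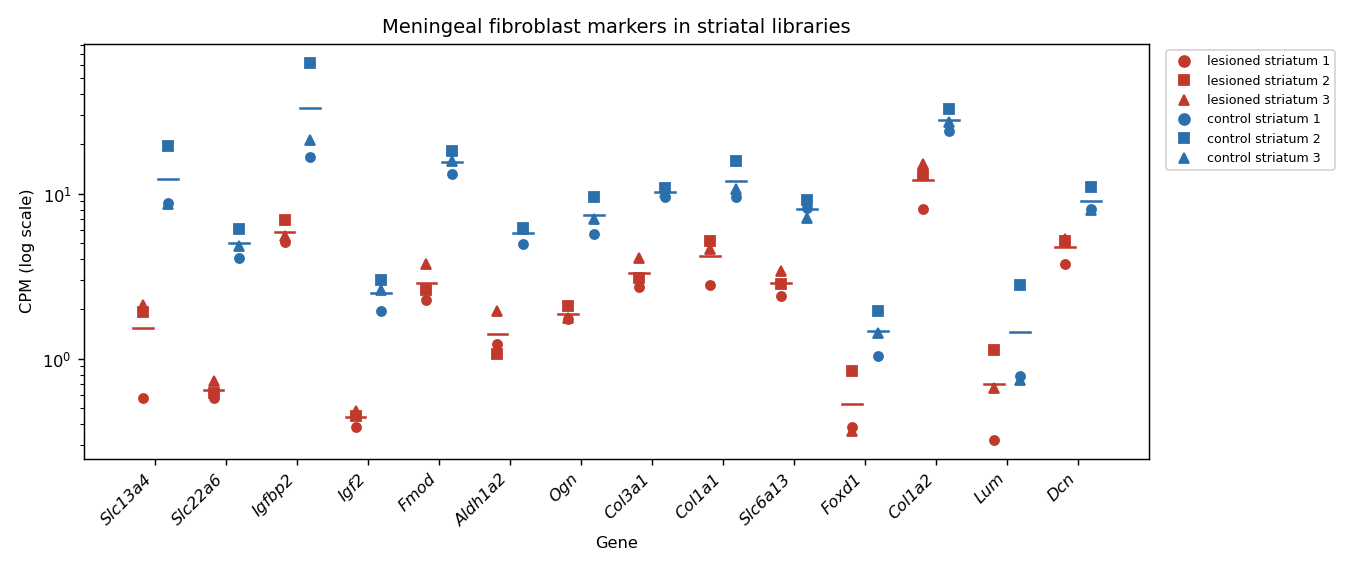
CPM on a log scale of the 14 meningeal fibroblast markers, with lesioned libraries in red to the left of control libraries in blue, shapes for the replicate number and a bar at the group mean. For 13 genes the 3 red points lie below the 3 blue ones, and for Lum they overlap.

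As a list, these markers averaged 0.654, 1.177 and 1.211 log2 CPM in lesioned striatum, against 2.529, 3.229 and 2.685 log2 CPM in control striatum. Their summed level was 30.7, 44.7 and 48.0 CPM in lesioned striatum, against 111.7, 196.4 and 124.6 CPM in control striatum, and 122.8 to 189.9 CPM in the 6 prefrontal libraries. Lesioned striatum thus lay below control striatum and below every prefrontal library. The median log2 fold change of the list was -1.718 without lesioned library 1, -1.633 without control library 2 and -1.529 without both. With both left out, the 13 of 14 markers whose groups did not overlap stand against 24.3% of all genes lower in every lesioned library. In that setting 7 markers were called lower, against 28 lower of all 14350 genes. Septal and choroid plexus markers separated the groups in the same direction, with list means of at most 4.879 and 0.751 log2 CPM in lesioned striatum, against at least 4.978 and 1.247 log2 CPM in control striatum, and their part in the fibroblast values was not tested. The sources used here do not say how much of the meninges stayed on the dissected pieces, and the part of this in the values was not tested.

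Serpinh1 and Fn1 are genes of connective tissue outside that list. Serpinh1, the collagen chaperone, measured 15.7, 17.2 and 15.3 CPM in lesioned striatum, against 28.8, 34.3 and 30.6 CPM in control striatum (log2 fold change -0.96, SE 0.10, adjusted p = 0.0553). The fibronectin gene Fn1 measured 39.95, 40.5 and 47.6 CPM in lesioned striatum, against 70.3, 71.9 and 75.5 CPM in control striatum (log2 fold change -0.77, SE 0.09, adjusted p = 0.0648). Neither reached the threshold, and the naming rule took both because their groups did not overlap. Of the 30 extracellular matrix and collagen genes, which include 3 collagens of the fibroblast list, 10 lay lower in all lesioned libraries and 2 higher, against 13.2% and 12.7% of all genes, with a median log2 fold change of -0.243 and 0 called. At an unadjusted p under 0.05 there were 2 higher and 9 lower, and DESeq2 called 2 higher and 5 lower.

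The genes next to the threshold in the upward direction were of mixed roles. Thbs4, which encodes a secreted thrombospondin, measured 13.2, 24.4 and 18.7 CPM in lesioned striatum, against 4.92, 4.45 and 5.32 CPM in control striatum (log2 fold change 1.93, SE 0.23, adjusted p = 0.0678), and without lesioned library 1 it was called (log2 fold change 2.134, adjusted p = 0.0463). The linker histone gene H1f2 measured 53.2, 48.2 and 53.1 CPM in lesioned striatum, against 17.3, 15.9 and 26.1 CPM in control striatum (log2 fold change 1.38, SE 0.18, adjusted p = 0.0736), and without control library 3 it was called (1.632, adjusted p = 0.0454). Linker histone genes resemble each other, so the split of reads among them is uncertain. The others by the naming rule were Lgi4 (0.59), the Rac exchange factor gene Prex2 (0.60), the muscle-associated gene Cmya5 (1.04), Tpbg (0.94), the protease inhibitor gene Serpinb1a (1.32) and the myosin gene Myo1d (0.82), given as log2 fold changes, none of them called. In each of these 8 genes every lesioned library lay above every control, which the naming rule required of them.

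Downward, besides the connective tissue genes, the spermine oxidase gene Smox measured 36.5, 38.4 and 34.1 CPM in lesioned striatum, against 60.2, 63.8 and 58.3 CPM in control striatum (log2 fold change -0.74, SE 0.08, adjusted p = 0.0553). The signalling adaptor gene Traf3 measured 100.8, 105.3 and 106.0 CPM in lesioned striatum, against 159.8, 167.9 and 152.8 CPM in control striatum (-0.62, SE 0.07, adjusted p = 0.0648). The 3 libraries of each group lay close together in both genes. In the fit of all 12 libraries, the prefrontal lesion effect of Smox was -0.60 (adjusted p = 0.0143), of Traf3 -0.49 (adjusted p = 0.0304), of Lgi4 0.43 (adjusted p = 0.0304) and of H1f2 1.19 (adjusted p = 0.0356), each with the sign it had in striatum.

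The lesion effect itself was compared between regions by an interaction term over all 12 libraries. That fit shares 1 estimate of spread between the regions and understates the spread of striatum. Its biological coefficient of variation was 11.32%, against 14.85% for the 6 striatal libraries alone. For the striatal effect it called 1040 genes, against 4, so its calls of the interaction are less secure than their adjusted p. The interaction was called for 12 of 14545 genes, which is 0.0825%, with 2 higher and 10 lower in striatum than in prefrontal cortex. Of these 12 genes, 5 belong to the meningeal fibroblast list: Slc22a6, with a striatal minus prefrontal difference of -2.68 (SE 0.34, adjusted p = 0.0161), Fmod (-2.22, adjusted p = 0.0125), Ogn (-1.82, adjusted p = 0.0393), Aldh1a2 (-1.87, adjusted p = 0.0393) and Slc6a13 (-1.67, adjusted p = 0.0378). Their prefrontal log2 fold changes lay between -0.25 and 0.18. Fabp7 had a prefrontal log2 fold change of -0.64 (SE 0.18, adjusted p = 0.187), and its difference of -0.72 (SE 0.25, adjusted p = 0.337) did not pass the threshold.

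**Figure D2:**
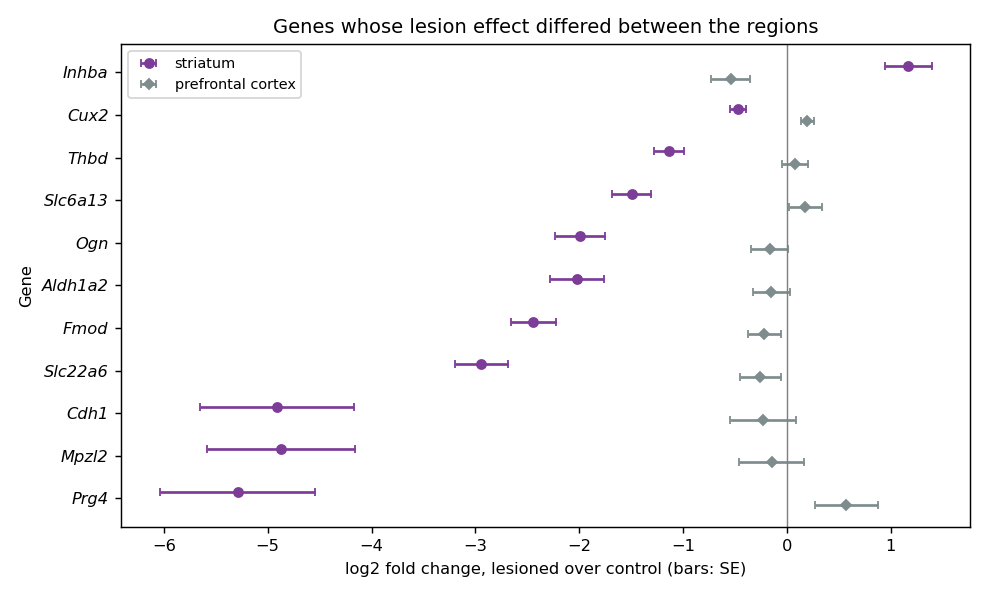
Log2 fold change, lesioned over control, with its SE, for 11 of the 12 genes whose lesion effect differed between regions, striatum in purple circles and prefrontal cortex in grey diamonds. Inhba lies above 0 in striatum, while 10 genes lie below 0 there and closer to 0 in prefrontal cortex.

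Projection neuron markers were higher in every lesioned library for most of the list, but their size followed single libraries and none was called. All 15 striatal projection neuron markers had a log2 fold change above 0 (median 1.283), 14 of them with lesioned libraries all above controls, against 12.7% of all genes. All 15 had an unadjusted p under 0.05, and DESeq2 called 9 of them higher. The list averaged 9.547, 8.251 and 8.745 log2 CPM in lesioned striatum, against 7.760, 7.284 and 7.931 log2 CPM in control striatum. Without lesioned library 1 and control library 2 the median was 0.695, with 14 of 15 markers still higher in every lesioned library, against 22.1% of all genes.

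The phosphodiesterase gene Pde10a, whose enzyme breaks down cyclic nucleotides in these neurons, measured 2561, 901.0 and 1317 CPM in lesioned striatum, against 536.5, 403.9 and 580.2 CPM in control striatum (log2 fold change 1.65, SE 0.37, adjusted p = 0.169). Scn4b, which encodes a subunit of sodium channels, measured 2446, 742.5 and 1111 CPM in lesioned striatum, against 402.4, 249.4 and 530.1 CPM in control striatum (1.86, SE 0.47, adjusted p = 0.181). The transcription factor gene Foxp1 measured 369.6, 164.0 and 230.1 CPM in lesioned striatum, against 106.6, 92.0 and 119.0 CPM in control striatum (1.26, SE 0.28, adjusted p = 0.166). In all of them lesioned library 1 was the highest and control library 2 the lowest of the 6. Ppp1r1b, which encodes the dopamine-regulated phosphatase inhibitor DARPP-32, kept that order with 2018, 807.5 and 1160 CPM in lesioned striatum, against 552.7, 393.6 and 691.3 CPM in control striatum.

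The markers of the Drd2 class were more evenly higher than those of the Drd1 class, a difference that was not tested. Of 8 tested markers of the Drd2 class, 8 lay above 0 and 7 were higher in every lesioned library (median 1.242), and of 9 markers of the Drd1 class, 6 lay above 0 and 3 were higher in every lesioned library (median 0.463), against 12.7% of all genes. Without lesioned library 1 and control library 2 these medians were 0.695 and 0.121, with 7 and 3 markers higher in every lesioned library, against 22.1% of all genes. Without lesioned library 1 alone the median of the Drd1 class was 0.279. No marker of either class was called, with 7 and 4 higher at an unadjusted p under 0.05, and DESeq2 called 6 and 2 higher. Drd2 measured 302.7, 125.5 and 183.0 CPM in lesioned striatum, against 75.9, 50.5 and 82.4 CPM in control striatum (log2 fold change 1.55, SE 0.33, adjusted p = 0.164). Penk measured 1391, 783.4 and 1073 CPM in lesioned striatum, against 492.1, 329.8 and 546.8 CPM in control striatum (1.25, SE 0.25, adjusted p = 0.157). Adora2a measured 421.5, 147.9 and 230.1 CPM in lesioned striatum, against 116.0, 79.3 and 136.5 CPM in control striatum (1.27, SE 0.38, adjusted p = 0.206), and lesioned library 2 stood only a little above control library 3.

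Within the Drd1 class, Drd1 measured 337.6, 134.7 and 187.8 CPM in lesioned striatum, against 110.5, 68.6 and 112.5 CPM in control striatum (log2 fold change 1.18, SE 0.35, adjusted p = 0.2003). The muscarinic receptor gene Chrm4 measured 81.8, 37.6 and 49.99 CPM in lesioned striatum, against 29.5, 25.3 and 29.9 CPM in control striatum (0.997, SE 0.27, adjusted p = 0.184). Both separated the groups. The peptide precursors did not: Tac1, which gives substance P, measured 182.7, 84.6 and 111.4 CPM in lesioned striatum, against 105.0, 80.5 and 89.0 CPM in control striatum, and Pdyn, which gives dynorphin, 103.4, 66.0 and 95.6 CPM in lesioned striatum, against 82.7, 51.3 and 65.9 CPM in control striatum. Isl1, a factor of Drd1 neurons and of cholinergic interneurons, measured 15.04, 17.9 and 17.7 CPM in lesioned striatum, against 28.0, 17.6 and 18.4 CPM in control striatum.

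**Figure D3:**
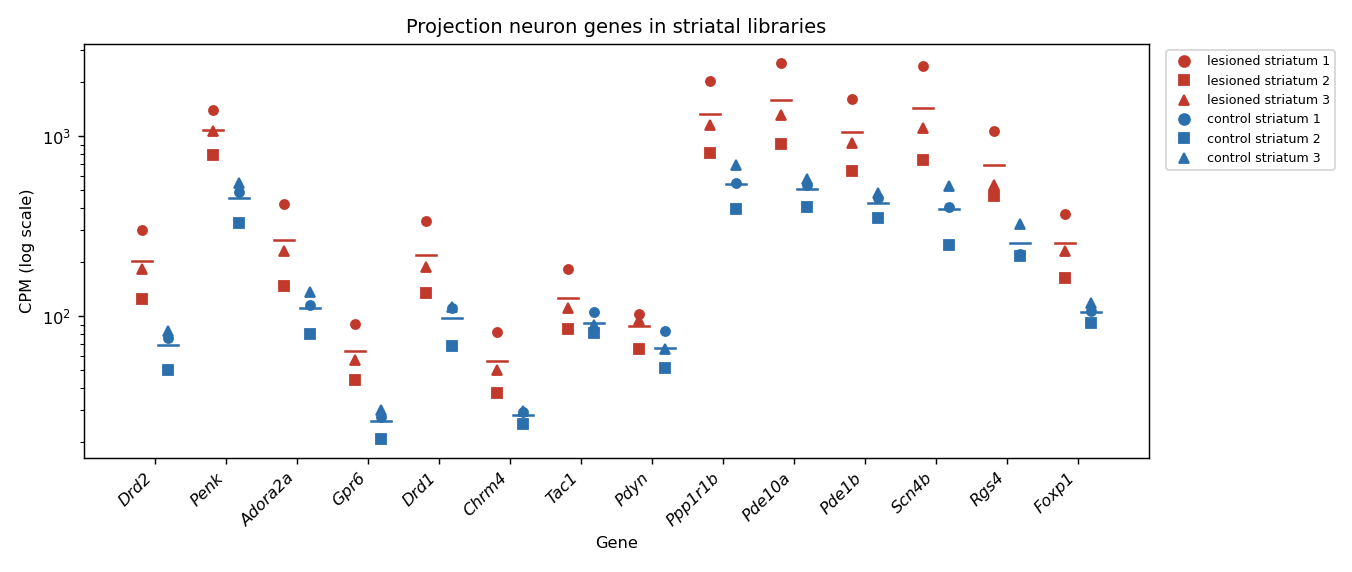
CPM on a log scale of 14 projection neuron genes, lesioned libraries in red to the left of controls in blue, with a bar at the group mean. Lesioned library 1 (red circle) is the highest point for every gene, and the groups overlap only for Tac1 and Pdyn.

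Matrix markers were mostly higher, like the projection neuron list, while striosome, ventral and interneuron markers had medians near or below 0. Of 6 markers of the matrix, the larger compartment of the striatum, 5 lay above 0 and 3 were higher in every lesioned library, against 12.7% of all genes. Their median was 0.471, and it was 0.291 without lesioned library 1 and 0.759 without control library 2. Without both, it was 0.563, with 5 of 6 higher in every lesioned library, against 22.1% of all genes. The matrix list averaged 7.912, 7.378 and 7.466 log2 CPM in lesioned striatum, against 6.770, 7.101 and 6.964 log2 CPM in control striatum. Prefrontal cortex, at 7.339 to 7.545 log2 CPM, lay above control striatum, so this list does not mark striatum alone. The part of cortical tissue in its values was not tested. Among the matrix markers was the calcium buffer gene Calb1 with 270.8, 185.3 and 232.5 CPM in lesioned striatum, against 133.2, 119.4 and 164.2 CPM in control striatum. The 8 striosome markers had a median of -0.020, and 7 of 8 markers of the ventral striatum lay below 0 (median -0.394, and -0.262 without lesioned library 1). The ventral list shares Dlk1 and Calcr with the hypothalamic and basal forebrain list given below. Its mean was lowest in lesioned library 1, at 4.187 log2 CPM, and the part of bordering tissue in it was not tested. The dopamine receptor gene Drd3, best known from the ventral striatum, measured 1.61, 2.25 and 3.33 CPM in lesioned striatum, against 5.53, 4.21 and 3.67 CPM in control striatum. Cholinergic and GABA interneuron markers had medians of -0.223 and 0.031. None of these markers was called. At an unadjusted p under 0.05 there were 3 matrix markers higher, 1 striosome marker higher, 1 ventral marker higher and 2 lower, 1 cholinergic marker higher and 1 GABA interneuron marker higher, and DESeq2 called 3, 1, 0, 1 and 0 higher and 1 ventral marker lower.

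Genes through which dopamine receptors act shared the order of the projection neuron list. Pde10a is in both lists, so the shared order is in part set by membership and is not a separate finding. Of 22 dopamine signalling targets, 20 lay above 0 and 15 had every lesioned library above every control, against 12.7% of all genes. The median was 0.857, with 0.521 without lesioned library 1, and 0.369 without lesioned library 1 and control library 2, where 15 were still higher in every lesioned library, against 22.1% of all genes. At an unadjusted p under 0.05 there were 15 higher and 0 lower, DESeq2 called 12 higher, and edgeR called 0. Rgs4, a brake on G protein signalling, measured 1070, 463.0 and 539.2 CPM in lesioned striatum, against 222.5, 216.2 and 325.8 CPM in control striatum, and the phosphatase inhibitor gene Arpp19 638.2, 321.8 and 369.2 CPM in lesioned striatum, against 166.6, 145.1 and 215.2 CPM in control striatum. For synthesis and transport of dopamine the median over 12 tested genes was 0.003. Th, the rate-limiting enzyme of dopamine synthesis, measured 9.81, 11.7 and 14.0 CPM in lesioned striatum, against 11.97, 7.26 and 12.03 CPM in control striatum, with overlapping groups (log2 fold change 0.18, SE 0.22, adjusted p = 0.693). Qdpr, which regenerates the biopterin cofactor of Th, measured 150.0, 194.1 and 136.5 CPM in lesioned striatum, against 109.8, 105.1 and 112.0 CPM in control striatum, while Gch1, which makes that cofactor, measured 0.645, 1.014 and 1.27 CPM in lesioned striatum, against 2.13, 1.71 and 2.02 CPM in control striatum. Neither was called by edgeR, while DESeq2 called Qdpr (adjusted p = 0.0146). Of the 12 genes, 3 were higher and 1 lower in every lesioned library, against 12.7% and 13.2% of all genes, and 2 were higher and 1 lower at an unadjusted p under 0.05. DESeq2 called no other gene of the list. These levels do not show how far dopamine axons were lost.

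Genes induced by neuronal activity split. Of 26 immediate early genes, 7 lay higher and 3 lower in every lesioned library, against 12.7% and 13.2% of all genes. The median was 0.346, with 0.144 without lesioned library 1 and 0.543 without control library 2. The list averaged 5.104, 4.625 and 4.754 log2 CPM in lesioned striatum, against 4.141, 4.937 and 4.641 log2 CPM in control striatum, so its groups overlapped. Prefrontal cortex lay higher, at 5.292 to 5.703 log2 CPM, and the part of cortical tissue in the striatal values was not tested. Of the 26 genes, 0 were called by edgeR, with 7 higher and 3 lower at an unadjusted p under 0.05, while DESeq2 called 4 higher. The zinc finger factor gene Egr1 measured 426.9, 203.3 and 244.4 CPM in lesioned striatum, against 119.4, 144.8 and 186.8 CPM in control striatum (log2 fold change 0.95, SE 0.29, adjusted p = 0.210), and the clock repressor gene Per1 219.4, 124.7 and 140.3 CPM in lesioned striatum, against 85.4, 88.1 and 92.3 CPM in control striatum (0.87, SE 0.20, adjusted p = 0.170). Fos, the most used marker of neuronal activation, measured 14.2, 16.5 and 15.9 CPM in lesioned striatum, against 10.2, 21.8 and 24.5 CPM in control striatum, so that the lesioned values lay inside the range of the controls. Per1 was called without lesioned library 1 and control library 2 (0.576, adjusted p = 0.0494).

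Among ion channels, 27 of 38 potassium channel genes lay above 0 (median 0.258), with 8 genes of the list higher and 3 lower in all lesioned libraries, against 12.7% and 13.2% of all genes. Of 30 sodium and calcium channel genes, 21 lay above 0 (median 0.217), with 6 higher and 2 lower in all lesioned libraries, against 12.7% and 13.2% of all genes. The voltage-gated channel gene Kcna4 measured 81.8, 48.3 and 56.1 CPM in lesioned striatum, against 28.1, 32.1 and 34.9 CPM in control striatum. Glutamate receptor and scaffold genes had a median of 0.2 over 32 tested, GABA genes -0.081 over 21 and presynaptic genes 0.124 over 29. These medians rest in part on lesioned library 1: without it they were 0.115 for potassium channel, 0.077 for sodium and calcium channel, 0.073 for glutamate, 0.009 for GABA and -0.017 for presynaptic genes. The metabotropic receptor gene Grm5 measured 566.7, 368.0 and 466.1 CPM in lesioned striatum, against 353.8, 312.4 and 323.8 CPM in control striatum. None of these genes was called by edgeR. At an unadjusted p under 0.05 there were 14 potassium channel genes higher and 2 lower, 9 sodium and calcium channel genes higher and 0 lower, 8 glutamate genes higher and 1 lower, 2 GABA genes higher and 1 lower, and 4 presynaptic genes higher and 1 lower, and DESeq2 called 3, 2, 1, 1 and 1 of them higher. Over all 14288 genes, 1329 were higher and 1146 lower at that p, and DESeq2 called 320 higher and 209 lower.

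**Figure D4:**
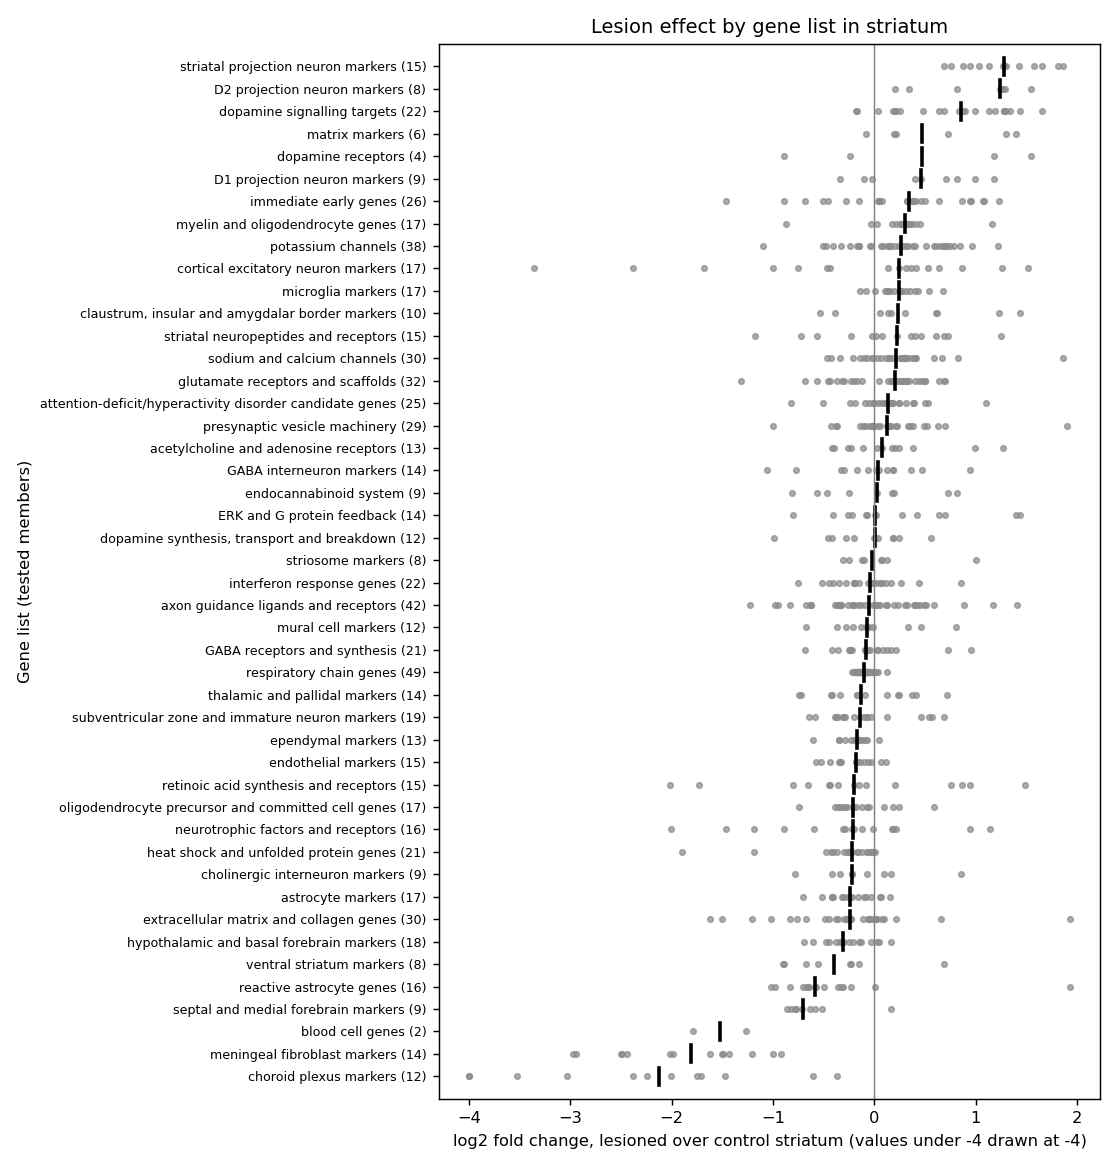
Log2 fold change, lesioned over control striatum, of the tested members of 46 gene lists (grey points, with values under -4 drawn at -4) and the list median (black bar), ordered by median. Projection neuron markers are at the top with a median of 1.283, and meningeal fibroblast and choroid plexus markers at the bottom with -1.808 and -2.127.

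Among markers of bordering tissue, choroid plexus and septal list means were lower in every lesioned library than in every control, and single libraries stood far apart. Choroid plexus markers averaged -0.307, 0.751 and 0.589 log2 CPM in lesioned striatum, against 1.247, 4.455 and 1.765 log2 CPM in control striatum, so that control library 2 stood far above the rest. Ttr, the transthyretin gene that choroid plexus makes in bulk, held 1, 30 and 16 counts in lesioned libraries, against 83, 33996 and 632 counts in control libraries. The median log2 fold change of the 12 tested choroid plexus markers was -2.127, and -0.664 without control library 2. All 12 lay below 0, and 5 were lower in every lesioned library, against 13.2% of all genes. Of these markers edgeR called 0, with 7 lower at an unadjusted p under 0.05, and DESeq2 called 1 lower. Ependymal markers, of the cells that line the ventricle, averaged 1.423, 2.570 and 2.215 log2 CPM in lesioned striatum, against 2.398, 2.427 and 2.214 log2 CPM in control striatum. The fibroblast markers kept their gap without control library 2, as given above.

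Cortical excitatory neuron markers averaged 4.409, 4.173 and 3.647 log2 CPM in lesioned striatum, against 2.750, 4.997 and 3.531 log2 CPM in control striatum, and 6.743 to 6.865 in prefrontal cortex. Slc17a7, the vesicular glutamate transporter gene of cortical neurons, measured 210.7, 141.2 and 46.5 CPM in lesioned striatum, against 7.11, 716.3 and 73.4 CPM in control striatum. Its log2 fold change was -0.9998 with all libraries and 1.709 without control library 2, so that this library set the sign. Cortical markers had a median of 0.247, and 0.882 without control library 2, and ran in both directions.

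Hypothalamic and basal forebrain markers averaged 4.261, 5.600 and 5.622 log2 CPM in lesioned striatum, against 5.818, 5.032 and 5.734 log2 CPM in control striatum. Dlk1, a transmembrane protein gene of the hypothalamus, measured 42.3, 108.8 and 111.9 CPM in lesioned striatum, against 121.5, 68.0 and 102.1 CPM in control striatum, and the orphan receptor gene Gpr101 35.5, 74.5 and 62.4 CPM in lesioned striatum, against 83.6, 42.9 and 79.3 CPM in control striatum. Septal markers averaged 3.258, 4.715 and 4.879 log2 CPM in lesioned striatum, against 5.297, 4.991 and 4.978 log2 CPM in control striatum. Of 9 septal markers, 8 lay below 0 (median -0.709, and -0.307 without lesioned library 1). With all libraries, 2 of the 9 were lower in every lesioned library, against 13.2% of all genes. Without lesioned library 1 and control library 2 the median was -0.362, and 7 of 9 were lower in every lesioned library, against 24.3% of all genes. None of them was called by edgeR or DESeq2, with 1 lower at an unadjusted p under 0.05 in edgeR. Lesioned library 1, the highest in projection neuron markers, was the lowest in hypothalamic, septal, choroid plexus and ependymal markers. It was also the highest in claustrum, insular and amygdalar border markers. These averaged 4.758, 4.170 and 3.910 log2 CPM in lesioned striatum, against 3.750, 4.294 and 3.914 log2 CPM in control striatum. In cortical excitatory neuron markers only control library 2 stood above lesioned library 1. The part of bordering tissue in the projection neuron values was not tested.

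**Figure D5:**
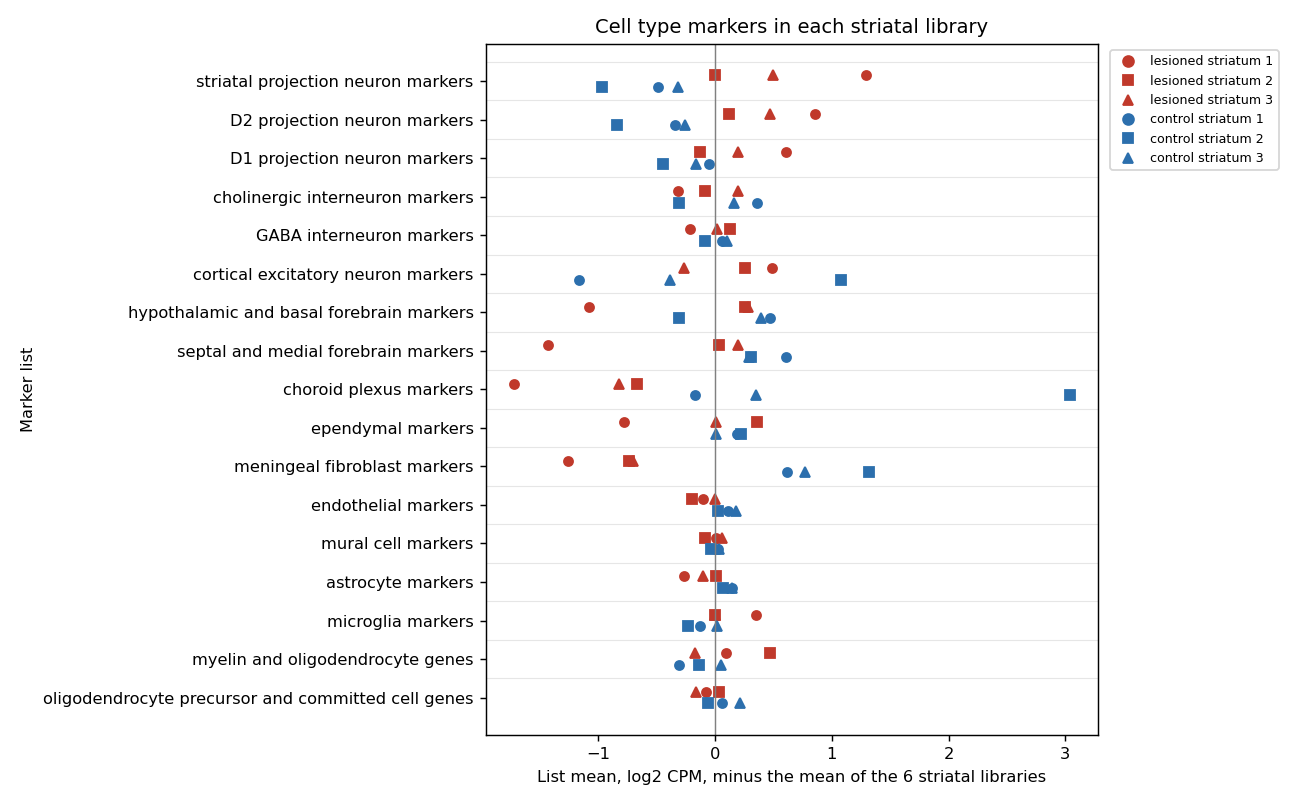
Mean log2 CPM of 17 marker lists in each striatal library, minus the mean of the 6, with lesioned libraries in red above controls in blue. The meningeal fibroblast groups lie on either side of 0 with a wide gap, while control library 2 stands alone in choroid plexus markers and lesioned library 1 in hypothalamic and septal markers.

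Astrocyte, reactive astrocyte and endothelial markers lay mostly below 0, and microglia and myelin markers mostly above 0. Of 17 astrocyte markers, 14 lay below 0 and 10 were lower in every lesioned library, against 13.2% of all genes, with a median of -0.239, and -0.247 without lesioned library 1 and control library 2. Fgfr3, a growth factor receptor gene of astrocytes, measured 128.8, 132.2 and 125.8 CPM in lesioned striatum, against 187.2, 171.0 and 155.9 CPM in control striatum (log2 fold change -0.41, SE 0.09, adjusted p = 0.160). The water channel gene Aqp4 measured 108.4, 125.4 and 107.2 CPM in lesioned striatum, against 139.0, 141.3 and 140.8 CPM in control striatum. Gfap, the intermediate filament gene that reactive astrocytes raise, measured 84.7, 181.7 and 155.5 CPM in lesioned striatum, against 192.8, 280.5 and 212.5 CPM in control striatum. Of 16 reactive astrocyte genes, 14 lay below 0, and 8 were lower and 1 higher in every lesioned library, against 13.2% and 12.7% of all genes. Their median was -0.584, and -0.267 without lesioned library 1 and control library 2. No member of either list was called, with 8 astrocyte markers lower, and 8 reactive genes lower and 1 higher, at an unadjusted p under 0.05. DESeq2 called 2 astrocyte markers lower, and 2 reactive genes lower and 1 higher.

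Microglia markers ran the other way, with 15 of 17 above 0, 7 higher in every lesioned library, against 12.7% of all genes, and a median of 0.241. The integrin gene Itgam measured 9.23, 6.93 and 6.36 CPM in lesioned striatum, against 4.86, 4.64 and 4.58 CPM in control striatum (log2 fold change 0.68, SE 0.18, adjusted p = 0.183). The receptor gene Csf1r measured 160.7, 121.2 and 118.7 CPM in lesioned striatum, against 102.7, 91.0 and 104.0 CPM in control striatum. Lesioned library 1 was the highest in both genes. The median was 0.112 without lesioned library 1 and 0.062 without lesioned library 1 and control library 2. In myelin genes the median was 0.298 (0.101 to 0.443 without 1 library) with overlapping groups in 16 of 17, and the exception was the transferrin gene Trf, with 600.5, 729.5 and 494.4 CPM in lesioned striatum, against 239.1, 252.2 and 322.2 CPM in control striatum (1.17, SE 0.17, adjusted p = 0.0957). Oligodendrocyte precursor genes had a median of -0.211, and 5 of 17 were lower in every lesioned library, against 13.2% of all genes. Of 15 endothelial markers, 13 lay below 0 and 7 were lower in every lesioned library (median -0.181), against 13.2% of all genes, among them the tight junction gene Cldn5 with 20.6, 20.7 and 23.9 CPM in lesioned striatum, against 33.5, 30.8 and 29.8 CPM in control striatum. Mural cell markers had a median of -0.076. None of these genes was called by edgeR, and at an unadjusted p under 0.05 there were 5 microglia markers and 2 myelin genes higher, 6 precursor genes lower and 1 higher, 6 endothelial markers lower, and 4 mural markers lower and 2 higher. Of these, DESeq2 called Trf and 1 mural marker higher and 2 endothelial markers lower.

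Heat shock and unfolded protein genes lay below 0 in 20 of 21, with 11 lower in every lesioned library, against 13.2% of all genes, and a median of -0.218, and -0.138 without lesioned library 1 and control library 2. The small heat shock protein gene Hspb1 measured 1.87, 2.31 and 2.91 CPM in lesioned striatum, against 4.98, 16.3 and 5.32 CPM in control striatum, and the disulfide isomerase gene Pdia4 42.5, 42.6 and 39.1 CPM in lesioned striatum, against 52.2, 51.1 and 49.8 CPM in control striatum. Nuclear-encoded respiratory chain genes lay below 0 in 46 of 49, but closely around it (median -0.099). Of the 49, 14 were lower and 1 higher in every lesioned library, against 13.2% and 12.7% of all genes. Interferon response genes had a median of -0.047. No gene of these lists was called by edgeR, with 8 heat shock genes lower, 1 respiratory gene lower and 1 interferon gene higher at an unadjusted p under 0.05, and DESeq2 called 1 heat shock gene lower.

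Of 16 neurotrophic factor and receptor genes, 11 lay below 0 (median -0.214, and -0.093 without lesioned library 1), and 2 were higher and 1 lower in every lesioned library, against 12.7% and 13.2% of all genes. The lower one was Ntf3, which encodes neurotrophin 3, with 0.0645, 0.507 and 0.606 CPM in lesioned striatum, against 0.912, 3.05 and 0.958 CPM in control striatum (log2 fold change -2.01, SE 0.72, adjusted p = 0.242). In the other direction, Gdnf, the glial-derived factor that supports dopamine neurons, measured 8.78, 4.17 and 4.54 CPM in lesioned striatum, against 3.22, 2.07 and 2.61 CPM in control striatum (log2 fold change 1.14, SE 0.33, adjusted p = 0.199). The ephrin receptor gene Epha3 measured 6.65, 6.76 and 6.85 CPM in lesioned striatum, against 11.4, 17.5 and 11.2 CPM in control striatum (-0.99, SE 0.19, adjusted p = 0.144), and the netrin receptor gene Dcc 106.0, 68.2 and 86.2 CPM in lesioned striatum, against 58.6, 57.0 and 57.0 CPM in control striatum. Gdnf, Epha3 and Dcc separated the groups without a call by edgeR, and DESeq2 called all 3 (adjusted p = 0.048, 0.0019 and 0.0248). In the neurotrophic list 2 genes were higher and 2 lower at an unadjusted p under 0.05 in edgeR, and Gdnf was the 1 that DESeq2 called. Over 42 axon guidance genes the median was -0.051, with 6 higher and 8 lower in every lesioned library, against 12.7% and 13.2% of all genes. Of them edgeR called 0, with 7 in each direction at an unadjusted p under 0.05, against 1329 higher and 1146 lower of 14288 genes. DESeq2 called 3 of them in each direction, against 320 higher and 209 lower of 14288 genes. Of 25 tested candidate genes for attention-deficit/hyperactivity disorder, 17 lay above 0 (median 0.132). In every lesioned library 5 were higher and 2 lower, against 12.7% and 13.2% of all genes. By edgeR 0 were called, with 5 higher and 0 lower at an unadjusted p under 0.05, and 1 was called higher by DESeq2. The serotonin receptor gene Htr1b, a member of that list, measured 121.7, 64.0 and 76.3 CPM in lesioned striatum, against 44.1, 30.0 and 47.8 CPM in control striatum (1.10, SE 0.27, adjusted p = 0.181).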

How the data were processed

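Messenger RNA of prefrontal cortex and striatum was sequenced from 500 ng of total RNA with a stranded kit, per the labels' protocols. What the authors deposited is 1 table of raw read counts with gene symbols as rows. The submitters' processing notes name STAR 2.7.1a, featureCounts and mm10. The sources used here do not give the annotation or the strand setting of the counting, so counts of overlapping, antisense and near-identical genes are uncertain. Of 21872 deposited rows, 3732 were at 0 in every library. Another 1830, holding 0.248% of striatal counts, held only multiples of 11, which read counts would not, and were left out of the main fit.

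Groups came from the sample titles. The 3 lesioned and 3 control striatal libraries were fitted alone in R 4.3.3 with edgeR 4.0.16 (filterByExpr, TMM factors, quasi-likelihood test, two-sided, 4 residual degrees of freedom), with Benjamini-Hochberg adjustment over 14288 genes and calls at an adjusted p below 0.05. The SE is the absolute log2 fold change over the root of F. CPM of single genes use the factors of these 6 libraries. List levels are means of log2 CPM (prior count 2) over members, with factors of all 12 libraries. The difference between regions is an interaction term in a fit of all 12 libraries. Counting floors take 3 counts and cover counting error only. The fit was tested on simulated counts with known changes. These were drawn with the same spread for every gene and without libraries that stand apart, so they do not show how such libraries affect calls.

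The genes named are all called genes, the 8 in each direction with the smallest p above 1 CPM whose groups do not overlap, up to 3 per list with the smallest p, and a fixed set of striatal and bordering genes. The result of 1 gene that this rule takes is not reported here, although counts include it. All 14 fibroblast markers were added after their values had been seen. The members, the 46 lists (762 genes) and the tests were chosen with earlier results of these data known, so lists carry no test. Alternatives were RLE and upper-quartile factors, DESeq2 1.42.0, limma-voom (limma 3.58.1), 2 other filters, 12 libraries in 1 fit, a replicate block, rows of multiples of 11 kept or divided, and libraries left out. Promoters were matched by symbol: Slc22a6, Fmod and Fabp7 had an entry.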

Additional observations from a re-analysis of the deposited data

Results flagged for a closer look

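The lesion effect was called different between striatum and prefrontal cortex, by the interaction term of the fit of 12 libraries, in 12 genes. That fit understates the spread of striatum, as given above. Values are striatal minus prefrontal log2 fold changes. Of the meningeal fibroblast markers these were Slc22a6 (-2.68), Fmod (-2.22), Aldh1a2 (-1.87), Ogn (-1.82) and Slc6a13 (-1.67).

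Outside the fibroblast list, Thbd, the thrombomodulin gene of endothelium, was at -1.21, with 4.26, 3.78 and 3.76 CPM in lesioned striatum, against 8.14, 8.11 and 9.64 CPM in control striatum. The cortical layer factor gene Cux2 was at -0.66, with 41.0, 39.0 and 42.7 CPM in lesioned striatum, against 59.1, 53.6 and 57.1 CPM in control striatum. Inhba, which encodes an activin subunit, was at 1.72, with 22.3, 13.6 and 18.9 CPM in lesioned striatum, against 6.14, 8.91 and 9.21 CPM in control striatum.

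Prg4, Mpzl2 and Cdh1 rest on few counts, so their fitted values of -5.85 for Prg4, -4.72 for Mpzl2 and -4.67 for Cdh1 depend on the prior count. Prg4 held 0, 3 and 0 counts in lesioned striatum, against 45, 59 and 30 counts in control striatum. Its ratio of summed counts, lesioned over control and scaled by library size, was 0.0233 (95% Clopper-Pearson interval 0.00474 to 0.0695, counting error only). Mpzl2 held 0, 2 and 1 counts in lesioned striatum, against 21, 52 and 28 counts in control striatum (ratio 0.0309, interval 0.00626 to 0.0928). Cdh1, a choroid plexus marker in the lists used here, held 0, 1 and 2 counts in lesioned striatum, against 19, 54 and 31 counts in control striatum (ratio 0.0300, interval 0.00608 to 0.0901). Thbd, Inhba, Prg4 and Mpzl2 were named after their values had been seen.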

How the results depend on the processing

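RLE and upper-quartile factors, both other filters and rows of multiples of 11 divided by 11 gave 4 calls, the same 4 genes. DESeq2 called 529 genes (320 higher, 209 lower) and the fit of all 12 libraries 1040 (603 higher, 437 lower), each with these 4 among them. limma-voom called 0 genes (0 higher, 0 lower; 2405 at an unadjusted p under 0.05), and so did edgeR with rows of multiples of 11 kept (0, 0 and 0; 2441). Without 1 library edgeR called 0 to 2 genes, 0 to 2 higher and 0 lower, with 1784 to 3037 at an unadjusted p under 0.05. Thbs4 was among the 2 without lesioned library 1, and the 1 without control library 3 was H1f2. Without both lesioned library 1 and control library 2 there were 55 calls (27 higher, 28 lower), with all 4 genes among them. For the difference between regions DESeq2 called 116 genes, and leaving out a library gave 6 (without control library 1) to 172 (without lesioned library 2).

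The median of projection neuron markers was 0.695 without lesioned library 1 and control library 2. That of choroid plexus markers was -0.664 without control library 2, -0.432 without both and -2.801 to -0.664 without 1 library. The medians of meningeal fibroblast and heat shock genes moved by less than the spread between replicates under all 17 alternatives. Of the 140 genes followed, 136 kept their sign throughout. Th turned to -0.023 without control library 2 (without 1 library, -0.023 to 0.299). Slc17a7 turned to 0.629 with limma-voom, 0.051 with the replicate block and 1.207 without both libraries (without 1 library, -1.577 to 1.709). Dlk1 turned to 0.184 without lesioned library 1 and 0.047 without control library 1 (without 1 library, -0.362 to 0.184). Lum turned to 0.234 without both libraries. The causes were not tested.

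The replicate numbers did not pair the libraries: deviations of same-numbered lesioned and control libraries correlated at -0.12, 0.001 and 0.01, and none of the 3 lesioned libraries correlated best with the control library of its own number. With the replicate block edgeR called 0 genes (0 higher, 0 lower; 2168 at an unadjusted p under 0.05).

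A count of 3 corresponds to 0.163 to 0.188 CPM, so differences at lower levels are not detectable at this depth. Igf2 rests on 6 to 8 counts in each lesioned library, and Slc22a6, which was called, on 9 to 12.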
